A study of Mus musculus with 96 samples.

Results

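The nuclear genes of oxidative phosphorylation were followed in 96 individually sequenced neurons of the mouse preoptic area, the part of the hypothalamus that senses and regulates body temperature. Members were the genes of the count table whose symbols begin with Nduf, Uqcr, Atp5 or Cox4 to Cox8, together with Sdha, Sdhb, Sdhc and Sdhd, and that had a count in at least 10 of the 96 cells. Of 24054 genes, 92 matched by name and 84 passed. They comprise 35 genes of complex I, 4 of complex II, 8 of complex III, 13 of complex IV, 15 of complex V, 7 complex I assembly factors (Ndufaf genes) and 2 further genes, Atp5s and Atp5sl, which are not subunits. Each cell was recorded in the whole-cell patch-clamp mode, picked with a glass pipette and sequenced by Smart-seq2, which amplifies full-length cDNA of a single cell. All cells came from C57BL/6N mice of 2 to 3 months, with no transgene or treatment given in the labels. The labels sort 78 cells by their electrical response to temperature into 24 insensitive, 21 warm-sensitive, 5 cold-sensitive, 18 silent insensitive and 10 silent sensitive cells. The class of 18 further cells is unknown, and they were left out of comparisons. The labels do not name the animals, so each class counts as 1 sample and no test was made. All differences below describe these cells.

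Oxidative phosphorylation is the mitochondrial process that makes most of a neuron's ATP. Complex I (NADH dehydrogenase) and complex II (succinate dehydrogenase, also an enzyme of the citric acid cycle) pass electrons to ubiquinone, complex III passes them to cytochrome c and complex IV (cytochrome c oxidase) to oxygen. Complexes I, III and IV pump protons as they do so, and complex V, the ATP synthase, uses the proton gradient. Complex II is encoded wholly in the nucleus, whereas each of the other complexes also holds subunits encoded by mitochondrial DNA, which were not analysed here. Neurons spend much of this ATP on restoring ion gradients after electrical activity.

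Total counts ran from 465167 to 3138144 in the cells with a class. Counts of Rn45s, from which ribosomal RNA is cut, made up 53.2% of the total in the 96 cells, with a median share of 67.7% in warm-sensitive and 45.4% in insensitive cells. Levels are therefore given as CPM, the count scaled to a total of 1000000 counts outside Rn45s in each cell. These totals had a median of 761928 in insensitive cells, against 314892 in warm-sensitive ones. Cold-sensitive cells had the most genes with a count (median 4644), ahead of insensitive (4021), silent insensitive (3668), warm-sensitive (3243) and silent sensitive (3229) cells. Of 12 neuronal markers Snap25 reached 10 CPM in all 96 cells, Stmn3 in 95 and Rbfox3 in 44. The 12 summed to 3562 to 21207 CPM (median 12262) in insensitive and 3088 to 25090 CPM (median 9434) in warm-sensitive cells. Markers of other cell types were also present. The 8 oligodendrocyte markers summed to a median of 1131 CPM in insensitive and 2728 CPM in warm-sensitive cells, and the 9 microglial markers to 718 and 3091 CPM, with wide overlap in both. The summed oligodendrocyte markers ran from 13.9 to 11775 CPM in insensitive and from 11.3 to 64055 CPM in warm-sensitive cells. The summed microglial markers ran from 6.19 to 30213 CPM and from 14.8 to 16010 CPM. Of the 5 endothelial markers, Cldn5 and Ly6c1 were below 10 CPM in every cell, Pecam1 and Flt1 reached it in 1 cell each and Itm2a in 11 cells, among them 60% of cold-sensitive and 20.8% of insensitive cells. The part of depth, of Rn45s and of other cells' RNA in the differences below was not tested. Cold-sensitive cell 4, with 2198 genes, and silent sensitive cell 8, with 15 members at 10 CPM, lay apart from their classes in several members and in complex shares. Neither of these numbers was itself marked as apart by the rule given with the flagged results. Values without these cells are given where they moved a call or a value most.

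Promoters are shown for the members around which the comparisons below turn: subunits of complex II, which were jointly low in warm-sensitive cells, and the 2 subunits at the extremes of the cold-sensitive and silent comparisons. RefSeq promoters (build GRCm38.p6, 250 bases before to 50 after the start, printed 5′ to 3′ on the gene's strand) were matched for 72 of the 84 members. Capitals mark matches on either strand to 5 motifs. These were GCGCANGCG for nuclear respiratory factor 1 (NRF1), AAGATGGC for the factor YY1, CCGGAAG for GABP and other ETS factors, and GGGCGG for the factor SP1. The last was TATAAA, the TATA box. Matches of different motifs may overlap. Sdha, the flavoprotein subunit that oxidises succinate, starts in chr13:74350191-74350490 on the minus strand and Sdhb, the iron-sulphur subunit, in chr4:140961021-140961320 on the plus strand. Sdhd, a membrane anchor, lies in chr9:50603800-50604099 on the minus strand. Uqcrfs1, the Rieske iron-sulphur protein of complex III, lies in chr13:30545267-30545566, and Ndufb8, an accessory subunit of complex I, in chr19:44555393-44555692, both on the minus strand.
Sdha: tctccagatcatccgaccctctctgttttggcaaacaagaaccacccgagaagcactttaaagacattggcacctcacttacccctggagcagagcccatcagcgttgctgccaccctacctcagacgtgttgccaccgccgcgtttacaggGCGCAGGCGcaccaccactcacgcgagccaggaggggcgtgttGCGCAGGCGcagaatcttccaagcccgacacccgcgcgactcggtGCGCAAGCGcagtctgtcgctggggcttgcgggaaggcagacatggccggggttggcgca
Sdhb: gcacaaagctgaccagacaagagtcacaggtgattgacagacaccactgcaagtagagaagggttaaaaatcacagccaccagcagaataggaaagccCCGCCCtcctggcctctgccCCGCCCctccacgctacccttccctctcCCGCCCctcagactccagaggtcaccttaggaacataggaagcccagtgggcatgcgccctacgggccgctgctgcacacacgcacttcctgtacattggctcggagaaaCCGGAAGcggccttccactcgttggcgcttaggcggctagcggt
Sdhd: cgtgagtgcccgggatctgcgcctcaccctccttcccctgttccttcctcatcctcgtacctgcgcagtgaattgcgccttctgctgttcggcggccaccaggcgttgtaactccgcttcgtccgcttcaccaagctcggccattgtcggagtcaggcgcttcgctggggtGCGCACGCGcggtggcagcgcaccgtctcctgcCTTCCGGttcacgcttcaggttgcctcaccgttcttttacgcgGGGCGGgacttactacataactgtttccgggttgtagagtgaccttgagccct
Uqcrfs1: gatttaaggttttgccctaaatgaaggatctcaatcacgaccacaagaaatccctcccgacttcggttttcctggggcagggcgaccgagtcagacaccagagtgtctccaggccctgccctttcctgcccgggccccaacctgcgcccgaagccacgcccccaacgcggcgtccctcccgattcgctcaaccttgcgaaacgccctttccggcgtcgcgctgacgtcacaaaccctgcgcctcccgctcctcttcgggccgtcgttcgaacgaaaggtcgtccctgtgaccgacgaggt
Ndufb8: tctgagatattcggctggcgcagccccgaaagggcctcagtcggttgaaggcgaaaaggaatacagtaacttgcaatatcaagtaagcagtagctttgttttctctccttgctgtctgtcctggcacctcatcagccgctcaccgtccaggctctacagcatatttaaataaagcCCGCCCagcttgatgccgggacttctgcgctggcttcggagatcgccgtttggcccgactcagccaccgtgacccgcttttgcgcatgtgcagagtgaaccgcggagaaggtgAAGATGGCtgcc
The Sdha window holds 3 NRF1 matches. The Sdhb window holds 1 GABP and 3 SP1 matches, and the Sdhd window 1 NRF1, 1 GABP and 1 SP1 match. The Ndufb8 window holds 1 YY1 and 1 SP1 match, and the Uqcrfs1 window holds no match. Among the 72 members, 20 windows (27.8%) held an NRF1 match, against 6.47% of all 27025 promoters of that length. A GABP match stood in 16 (22.2%) against 9.12%, a YY1 match in 10 (13.9%) against 2.88%, an SP1 match in 33 (45.8%) against 35.9%, and a TATA match in 5 (6.94%) against 14.2%. The median difference between warm-sensitive and insensitive cells (on the log2 scale explained with that comparison) was -1.34 for the 20 members with an NRF1 match and -1.46 for the other 52. It was -1.11 for the 16 with a GABP match and -1.52 for the other 56, and -2.17 for the 10 with a YY1 match and -1.40 for the other 62. It was -1.62 for the 33 with an SP1 match and -1.37 for the other 39, and -2.36 for the 5 with a TATA match and -1.42 for the other 67.

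Fewer members were found per cell in warm-sensitive than in insensitive cells, while the summed level of the members overlapped widely between the classes. Insensitive cells had from 26 to 78 members at 10 CPM or more, with a median of 70. Warm-sensitive cells had from 28 to 64, with a median of 48, so that the highest warm-sensitive cell lay below the insensitive median. Cold-sensitive cells had from 38 to 73 members (median 71), silent insensitive cells from 29 to 81 (median 56) and silent sensitive cells from 15 to 69 (median 52). The ranges of the 5 classes overlapped. The summed level of all 84 members ran from 15267 to 56512 CPM in insensitive cells, with a median of 33690, and from 13670 to 59889 CPM in warm-sensitive cells, with a median of 27629. Silent sensitive cells had a median of 32132 CPM, cold-sensitive cells 32708 CPM and silent insensitive cells 35050 CPM. Members thus made a median of 3.37% of counts outside Rn45s in insensitive and 2.76% in warm-sensitive cells.

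**Figure D1:**
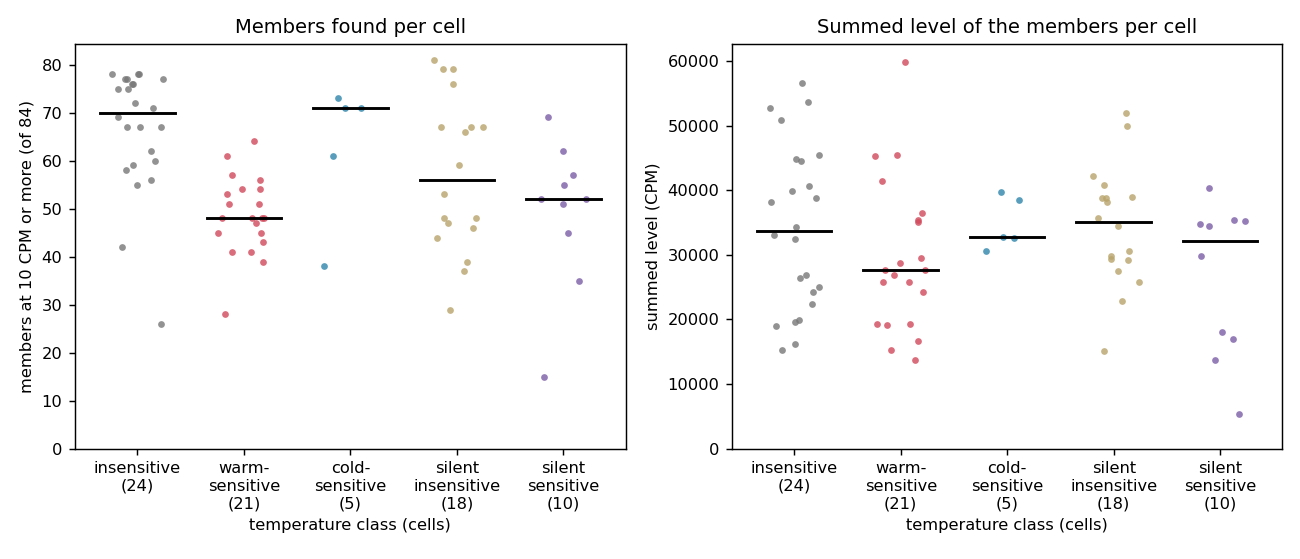
Members at 10 CPM or more (left) and summed level of the 84 members in CPM (right) in each cell, by temperature class. Points are cells and bars are medians. Warm-sensitive cells reach at most 64 members, below the insensitive median of 70, while summed levels overlap.

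The number of members found followed the number of all genes found in the same cell. Over the 78 cells Spearman's rho was 0.78 and Pearson's r 0.73, and r was 0.72 without the 2 cells farthest from the median. The relation was not of like strength in each class, with rho of 0.90 in silent insensitive, 0.69 in insensitive, 0.64 in silent sensitive and 0.27 in warm-sensitive cells. Both numbers come from the same library. Members per 100 genes found had medians from 1.48 in silent sensitive to 1.61 in silent insensitive cells, with 1.53 in warm-sensitive, 1.54 in insensitive and 1.57 in cold-sensitive cells. Each cell was also thinned to 100000 counts outside Rn45s, with 1 shallower warm-sensitive cell left out. Members with a count then had a median of 71.5 in insensitive and 54.5 in warm-sensitive cells. For all genes with a count at this depth, medians were 3034 (insensitive) and 2184 (warm-sensitive). The lower number after thinning was thus not limited to the members. The summed level of the members did not follow the number of genes found, with a rho of -0.04.

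**Figure D2:**
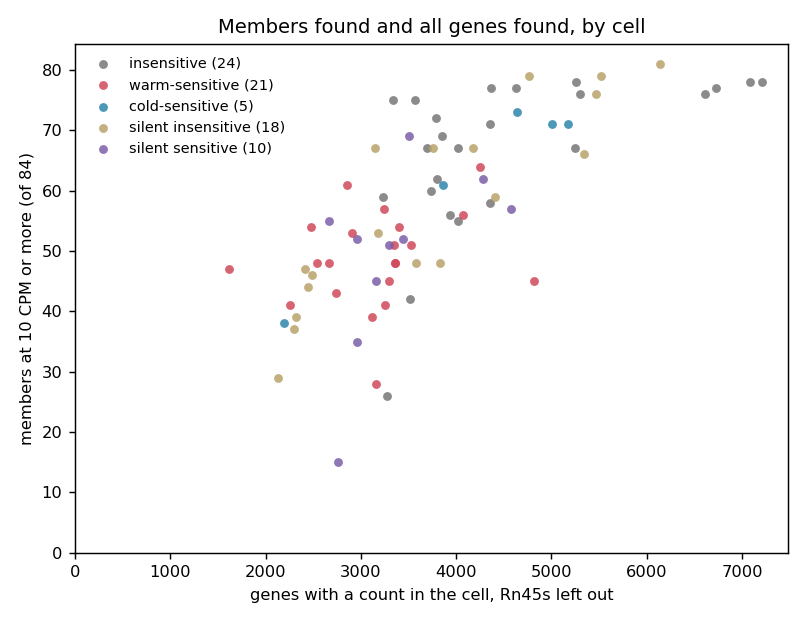
Members at 10 CPM or more against all genes with a count in the same cell, 1 point per cell, coloured by class. Cells with more genes hold more members (rho 0.78 over 78 cells), with a weaker relation within the warm-sensitive cells (rho 0.27).

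Levels between members were compared per kilobase of transcript. Cox4i1, which is the broadly expressed isoform of a complex IV subunit, was highest at a mean of 2816 CPM per kilobase. Cox8a at 1686, Cox6b1 at 1501, Atp5b (the catalytic beta subunit of ATP synthase) at 1473 and Ndufa4 at 1400 followed. The 10 most abundant members made 36.5% of all member CPM, and 18 members made 50%. Of complex II, Sdhb (395 CPM per kilobase) lay near the middle of this order, and Sdha (174), Sdhc (122) and Sdhd (99) lay in its lower part. Counts in every one of the 96 cells were found for 5 members, Atp5a1, Atp5b, Cox4i1, Cox6b1 and Ndufs7.

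Isoforms known mainly from heart, muscle, lung, testis or low oxygen were found in few cells or none. Cox4i2 and Cox8c had no count in any cell. Cox7b2 and Cox8b had counts in 1 cell each, Ndufa4l2 in 2, Cox6a2 in 6 and Cox7a1 in 9, just under the limit of 10 cells. Just inside it, Cox6b2 had counts in 11 cells, Ndufaf1 in 16 and Atp5g2 in 17. The isoforms Cox6a1, Cox7a2, Cox8a and Ndufa4 of the same families had counts in 89, 93, 95 and 95 cells. Among the genes of the membrane ring of ATP synthase, Atp5g3 had counts in 93 cells, Atp5g1 in 75 and Atp5g2 in 17. Ndufs5, a complex I subunit, had only 13 counts in 4 cells, while BC002163, an annotated pseudogene nearly identical to it, had 282 counts in 61 cells. Of the 84 members, 25 match a GENCODE M21 transcript of another gene (at least 95% identity over 200 bases or more). For some this is a pseudogene, for others a gene such as Mrpl47 for Ndufb5. An exon on the other strand overlaps 20 members and one on the same strand 4. The sources used here do not say how the authors' counting treated shared reads and strand, so the levels of these members are uncertain. Of the members named below, Ndufa3, Ndufa9, Ndufb6, Ndufb11, Ndufs3, Ndufs6, Atp5a1, Atp5f1, Cox5a and Uqcrc2 overlap a gene on the other strand. Ndufb8 and Ndufb9 overlap one on the same strand. Pseudogene copies exist for Ndufb3, Ndufb11, Ndufs3, Ndufs6, Atp5f1, Atp5k and Cox7b. The complex II genes, Uqcrfs1, Uqcrh, Uqcrq, Cox4i1 and Atp5b have none of these.

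The comparison of warm-sensitive with insensitive cells asks whether neurons that respond to warming differ in these genes from neurons that do not. The values compared are means over cells of log2(CPM + 1), and a member is eligible when 10 CPM is reached by 25% or more of either class, and by no fewer than 3 cells. Warm-sensitive cells were lower by 1 or more in 52 of 80 eligible members (65%) and higher by 1 or more in 0. The background was 61.6% lower and 1.71% higher among all 5088 eligible genes, so this share is close to that of genes in general. The median difference was -1.44 over the 80 members and -1.28 over all eligible genes. Over all 84 members it was -1.43, with 53 lower and 0 higher. Of the 80, 6 were eligible through the insensitive cells only. The share of cells at 10 CPM was lower in warm-sensitive cells for 76 of the 84 members, equal for 4 and higher for 4. These shares were not counted over all genes. Cell titles carry a letter, a possible batch whose meaning the labels do not give, and within letters the median difference was -1.36. In the same comparison 9 of 12 neuronal markers were lower by 1 or more and 0 higher (median -1.37), and of 5 eligible oligodendrocyte markers 1 was lower and 3 higher (median 1.16). Of 8 eligible microglial markers 2 were lower and 2 higher (median -0.12), and of 4 astrocyte markers 1 was lower and 0 higher (median -0.44). The scale mattered. With DESeq2 size factors the median was -0.38 and with counts summed over the cells of a class it was -0.16, while the median of all genes moved from -1.28 to -0.67 with DESeq2 size factors.

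The complexes differed in how far they lay from the median gene on the scale of means per cell. Median differences were -2.96 for complex II (4 of 4 members lower by 1 or more), -1.94 for complex I (25 of 35), -1.53 for complex III (6 of 8), -1.16 for complex V (8 of 14) and -0.83 for complex IV (4 of 12). Within title letters the order was the same, with -2.83 for complex II, -1.65 for I, -1.32 for III, -0.97 for V and -0.62 for IV. With DESeq2 size factors the order again held, at -1.79, -0.74, -0.36, -0.01 and 0.38, so that complex IV changed sign. In counts summed over cells it did not hold. The log2 ratios were then -0.72 for complex II, -0.42 for III, -0.25 for V, -0.12 for IV and -0.08 for I. The eligible assembly factors, proteins that build complex I without being part of it, had a median of -2.11 over 5 genes and all 7 had a median of -1.37.

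**Figure D3:**
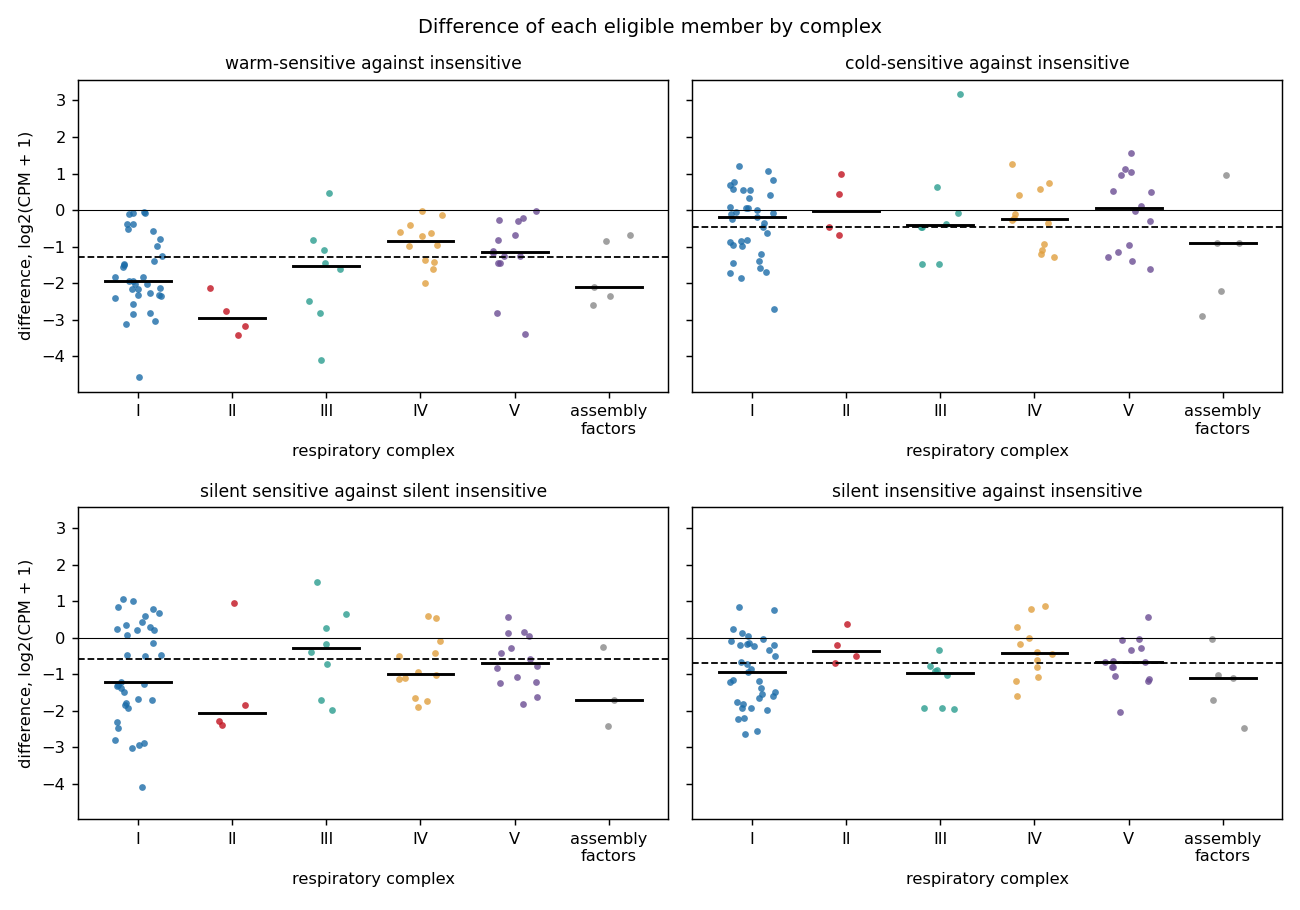
Difference in mean log2(CPM + 1) for each eligible member, by complex, in the 4 comparisons. Points are genes, short bars are medians per complex, and the dashed line is the median of all eligible genes. In warm-sensitive cells the 4 members of complex II lie below the dashed line and most members of complex IV above it.

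Succinate dehydrogenase, complex II, was the complex with the lowest difference in warm-sensitive cells. Sdha ran from 0 to 2751 CPM in insensitive cells with a median of 318, and from 0 to 2243 CPM in warm-sensitive cells with a median of 5.85. It reached 10 CPM in 19 of 24 insensitive and 8 of 21 warm-sensitive cells. Most warm-sensitive cells were low, 5 of 21 exceeded the insensitive median, and the ranges overlapped. Sdhb had medians of 491 and 9.09 CPM and reached 10 CPM in 21 of 24 and 10 of 21 cells. Sdhc, a membrane anchor that holds the haem group together with Sdhd, had medians of 194 and 2.61 CPM and reached 10 CPM in 19 of 24 and 6 of 21 cells. Sdhd had medians of 58.1 and 0 CPM and reached 10 CPM in 16 of 24 and 6 of 21 cells. The differences were -2.76 for Sdha, -3.17 for Sdhb, -3.42 for Sdhc and -2.13 for Sdhd. Each kept its sign under every scaling tried and with any single cell left out. In counts summed over cells the differences were smaller, at -0.19 for Sdha, -1.44 for Sdhb, -1.37 for Sdhc and -0.21 for Sdhd.

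No warm-sensitive cell held all 4 complex II genes at 10 CPM. That was the case in 14 of 24 insensitive, 3 of 5 cold-sensitive, 6 of 18 silent insensitive and 2 of 10 silent sensitive cells. Of the 21 warm-sensitive cells, 2 held none of the 4 genes, 10 held 1, 7 held 2 and 2 held 3. After thinning to 100000 counts, all 4 genes had a count in 1 of 20 warm-sensitive and 14 of 24 insensitive cells. Complex II made a median of 4.32% of the members' counts in insensitive and 2.05% in warm-sensitive cells, a ratio that does not depend on the library total. The ranges, 0.035 to 15% and 0.0153 to 8.54%, overlapped. The median shares of complex I were 33.1% and 35.7%, of complex III 9.49% and 7.80%, of complex IV 20.7% and 21.6%, and of complex V 27.9% and 29.8%.

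**Figure D4:**
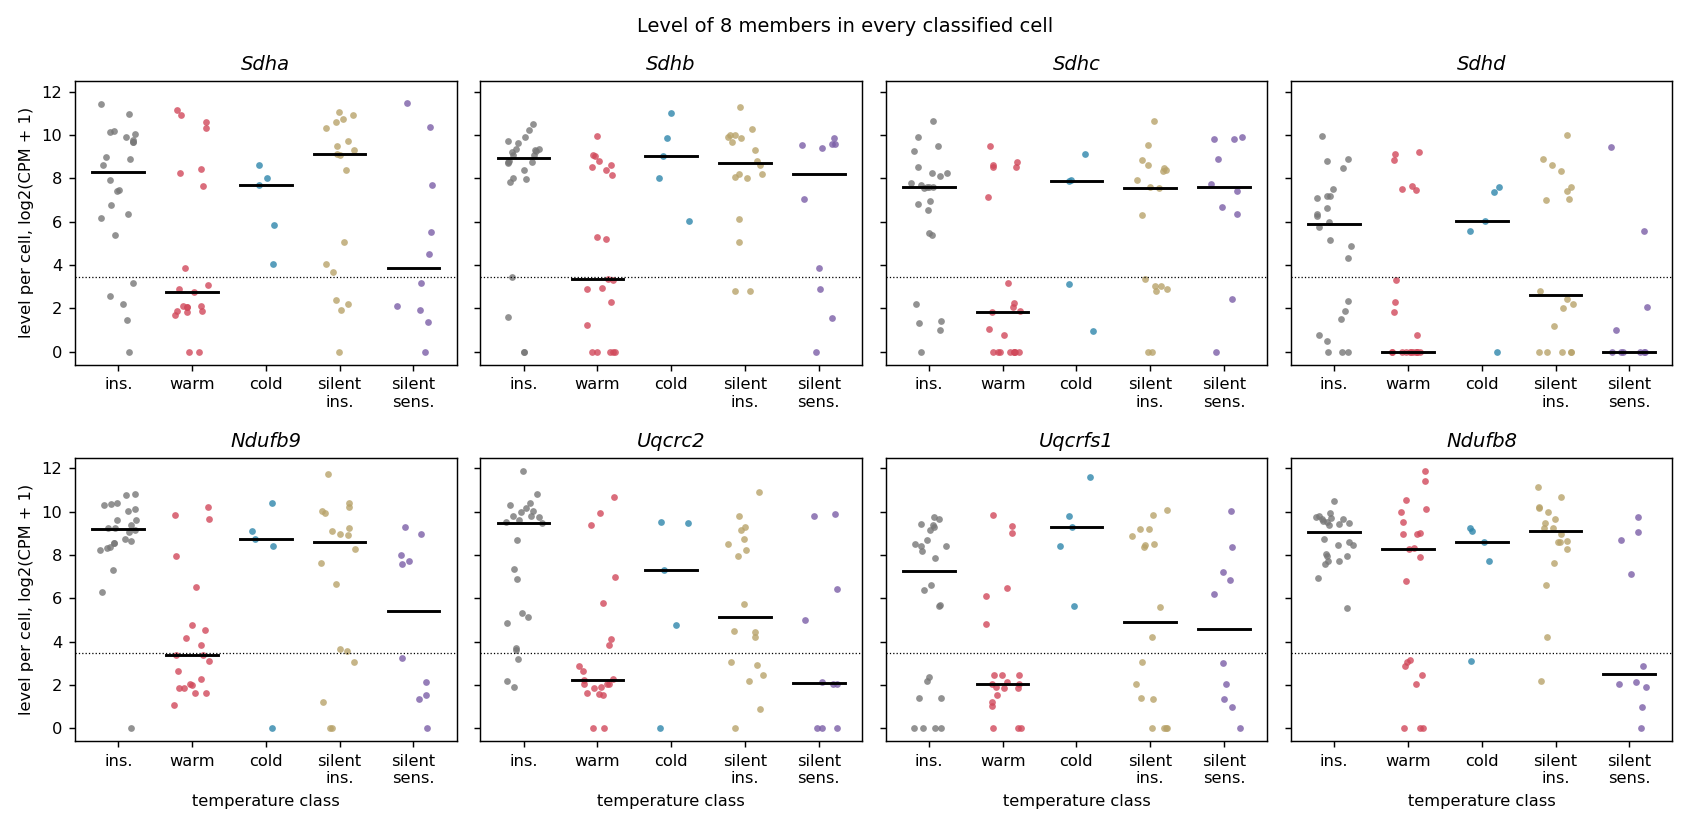
Level, as log2(CPM + 1), of the 4 complex II genes, Ndufb9, Uqcrc2, Uqcrfs1 and Ndufb8 in every cell with a class. Points are cells, bars are medians and the dotted line marks 10 CPM. Most warm-sensitive cells lie below the dotted line for the complex II genes, Ndufb9 and Uqcrc2, and all 5 cold-sensitive cells lie above it for Uqcrfs1.

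In complex I the lowest member in warm-sensitive cells was Ndufb9, an accessory subunit of the membrane arm. It ran from 0 to 1815 CPM in insensitive cells with a median of 578, and from 1.13 to 1186 CPM in warm-sensitive cells with a median of 9.37. All but 1 insensitive cell reached 10 CPM, against 9 of 21 warm-sensitive cells. Only 3 warm-sensitive cells exceeded the insensitive median. The difference was -4.58, with -4.33 within title letters and -3.43 with DESeq2 size factors. It ranged from -4.96 to -4.42 when 1 cell was left out, and in counts summed over cells it was -2.62. Exons of Ndufb9 overlap the annotated gene Gm49356 on the same strand. The 7 nuclear core subunits, which carry the flavin and iron-sulphur clusters or bind quinone, had a median difference of -2.16 with 6 lower by 1 or more. The 28 accessory subunits had a median of -1.83 with 19 lower. Of all 5088 eligible genes, 61.6% were lower by 1 or more. In counts summed over cells the log2 ratio for complex I as a whole was -0.08. Ndufv1, which binds NADH, had medians of 306 and 7.96 CPM and a difference of -2.84. Ndufs7 had medians of 785 and 75.5 CPM and a difference of -2.56. The exception among the core subunits was Ndufs8, with medians of 129 and 209 CPM and a difference of -0.07 that became 0.98 with DESeq2 size factors. Ndufs6 likewise lay at -0.05, or 1.13 with DESeq2 size factors.

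Complex III held both the second-lowest member and the highest one. Uqcrc2, a core protein of the complex, ran from 2.79 to 3717 CPM in insensitive cells with a median of 713, and from 0 to 1613 CPM in warm-sensitive cells with a median of 3.76. It reached 10 CPM in 21 of 24 insensitive and 7 of 21 warm-sensitive cells, and 2 warm-sensitive cells exceeded the insensitive median. The difference was -4.09, with -4.17 within title letters, -2.94 with DESeq2 size factors and -2.90 in summed counts. Pdzd9, which overlaps Uqcrc2 on the other strand, had no count in any cell. Uqcrfs1 had medians of 165 and 3.19 CPM and a difference of -2.50. Uqcrh, the hinge protein next to cytochrome c1, had medians of 463 and 673 CPM and reached 10 CPM in 22 of 24 and 20 of 21 cells. Its difference of 0.48 was the highest of the 80, fell to 0.12 without insensitive cell 11 and became -0.26 when Rn45s was kept in the totals.

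Complexes IV and V differed less on the scale of means per cell. In counts summed over cells their log2 ratios were -0.12 and -0.25, against -0.08 for complex I. Cox4i1 ran from 500 to 4005 CPM in insensitive cells with a median of 2015, and from 548 to 4505 CPM in warm-sensitive cells with a median of 1807. The cells of both classes covered the same range, and the difference of -0.13 became 1.05 with DESeq2 size factors. Cox5a, a matrix-side subunit, had medians of 428 and 410 CPM and a difference of -0.02, or 1.15 with DESeq2 size factors. In complex V, Atp5a1 (the alpha subunit) had medians of 1633 and 1611 CPM and a difference of -0.02, or 1.13 with DESeq2 size factors. Its catalytic partner Atp5b had medians of 2707 and 2001 CPM and a difference of -1.18, or -0.01 with DESeq2 size factors. Atp5f1, the b subunit of the peripheral stalk, was the exception in complex V, with medians of 629 and 78.2 CPM and 10 CPM reached in 23 of 24 and 12 of 21 cells. Its difference was -3.40, and -2.24 with DESeq2 size factors. Atp5f1 has exon overlaps on the other strand and a pseudogene copy.

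**Figure D5:**
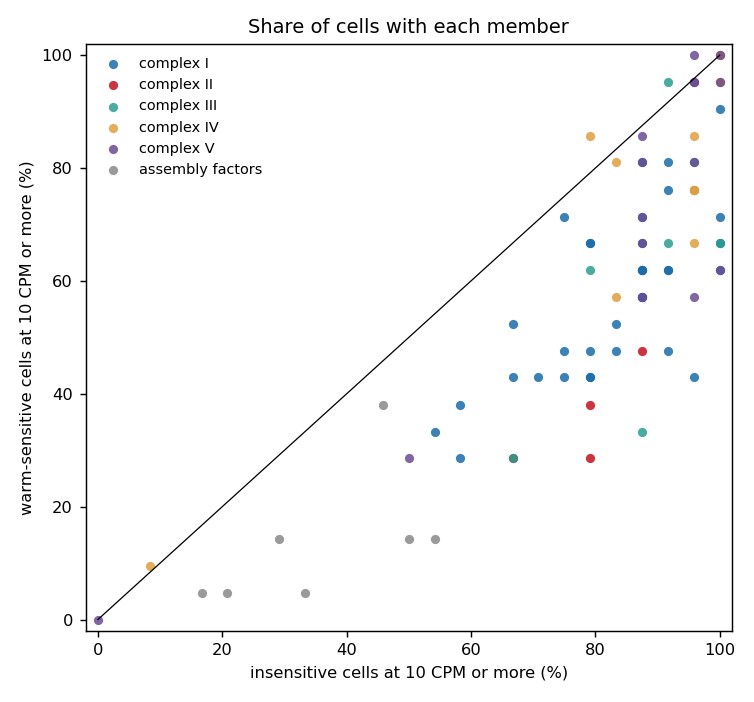
Percentage of warm-sensitive cells (vertical) and of insensitive cells (horizontal) at 10 CPM or more for each member, coloured by complex. The line marks equal shares, members with equal values lie on top of each other, and Atp5s and Atp5sl are not drawn. Members found in most insensitive cells spread from about the line, as for Cox4i1 in all cells of both classes, down to Uqcrc2 with 87.5% against 33.3%.

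Of the 76 members that reached 10 CPM in at least 50% of insensitive cells, 23 did so in under 50% of warm-sensitive cells. Choosing members by their share in insensitive cells favours a lower share in the other class. Among cells with a count, members were also lower in warm-sensitive cells, for 65 of 84 members and with a median difference of -0.64. Neither count was made over all genes. Over all cells, 90.8% of all eligible genes lay below 0 in this comparison, as did 79 of the 80 eligible members. After thinning to 100000 counts, the median share of cells with a count per member was 89.6% in insensitive and 70% in warm-sensitive cells.

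Cold-sensitive cells lay within 1 of insensitive cells in most members, and Uqcrfs1 had the highest difference. Of 80 eligible members, 21 (26.2%) were lower by 1 or more and 8 (10%) higher, against 35.8% and 17.8% of all 5116 eligible genes. The median difference was -0.29, and -0.45 over all genes; over all 84 members it was -0.29, with 22 lower and 8 higher. Of the 80, 8 were eligible through the insensitive cells only. The insensitive cells also served the previous comparison. These values rest on 5 cells. Without cold-sensitive cell 4 the median was 0.17, with 11 lower and 15 higher, and without cell 1 it was -0.53. The median was 0.07 with TMM library sizes and 0.03 with DESeq2 size factors. Median differences by complex lay between -0.42 (complex III) and 0.04 (complex V), and their signs changed with the scaling. Without cell 4, the medians over all members of a complex lay between 0.05 (complex III) and 0.41 (complex IV). Microglial and oligodendrocyte markers were higher in cold-sensitive cells, by 1 or more in 8 of 8 eligible microglial (median 2.08) and 3 of 5 oligodendrocyte markers (median 2.40). Astrocyte markers were not, with 2 of 4 eligible ones lower by 1 or more and 1 higher (median -1.13). The summed microglial markers ran from 26.8 to 22348 CPM in cold-sensitive cells (median 6551) and the summed oligodendrocyte markers from 1727 to 22238 CPM (median 2516). Of 12 neuronal markers 4 were lower and 1 higher (median -0.63). The part of these markers in the members' differences was not tested.

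Uqcrfs1, which passes electrons to cytochrome c1, measured 49, 337, 631, 3121 and 883 CPM in cold-sensitive cells 1 to 5. In insensitive cells it ran from 0 to 871 CPM with a median of 165, and 16 of 24 reached 10 CPM. The classes overlapped, with 4 of 5 cold-sensitive cells above the insensitive median. The difference was 3.18, 2.51 without cold-sensitive cell 4 and no lower with any other cell left out, 1.86 within title letters and 1.19 in summed counts. Further subunits at the high end were Atp5e (1.57), Cox7a2 (1.27), Ndufb6 (1.22) and Atp5k (1.12), each above 0 under every scaling tried. Without cold-sensitive cell 4, Cox7a2 lay at 0.78, Ndufb6 at 0.64 and Atp5k at 0.82, all under 1. The cold-sensitive cells measured 233 to 900 CPM for Atp5e, the epsilon subunit of ATP synthase, and the insensitive cells 0 to 883 CPM. At the low end were the assembly factors Ndufaf5 (-2.90) and Ndufaf2 (-2.22), the complex I subunit Ndufb11 (-2.71, and -1.78 without cell 4), and Atp5sl (-2.70) and Atp5s (-2.09). Each of these low members was eligible through the insensitive cells only, and such a filter favours a low difference. Atp5s had no count in any of the 5 cold-sensitive cells, against 10 of 24 insensitive cells with a count. Ndufaf5 reached 10 CPM in 1 of 5 cold-sensitive and 13 of 24 insensitive cells. For members this rarely found, 5 cells limit what can be seen.

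Among the cells that the labels call silent, the temperature-sensitive ones were lower than the insensitive ones by 1 or more in 18 of 35 complex I members, 3 of 4 complex II members and 6 of 12 eligible complex IV members. Of 77 eligible members, 36 (46.8%) were lower by 1 or more and 3 (3.9%) higher, against 38.8% and 13.6% of all 3980 eligible genes. The median difference was -0.78, and -0.59 over all genes; over all 84 members it was -0.63, with 36 lower and 4 higher. Of the 77, 5 were eligible through the silent insensitive cells only. Without silent sensitive cell 8 the median was -0.46, with 27 lower and 7 higher. The 28 accessory subunits of complex I had a median of -1.29, with 16 lower and 2 higher, and the 7 core subunits a median of 0.07, with 2 lower and 0 higher. Without cell 8 these medians were -0.98 and 0.45. Complex II had a median of -2.06 (-1.68 without cell 8), which stayed below 0 under every library total tried, while the medians of complex III (-0.29) and complex V (-0.68) changed sign with DESeq2 size factors, as did that of all genes, to 0.11. Without cell 8 complex III lay at 0.17. Within title letters the medians were -0.52 for complex I, -1.32 for II, 0.48 for III, -0.58 for IV and -0.71 for V. The median of all eligible genes within letters was -0.53, so complex I lay close to it. In counts summed over cells complex II was no longer the lowest. The log2 ratios were then -0.51 for complex V, -0.40 for I, -0.25 for IV, -0.15 for II and -0.13 for III. Marker lists moved too: 5 of 12 neuronal markers were lower by 1 or more in silent sensitive cells (median -0.41), as were 4 of 8 eligible microglial (-1.02), 3 of 4 astrocyte (-1.25) and 2 of 4 oligodendrocyte markers (-1.22), with 0 higher in each list. The part of these markers in the members' differences was not tested.

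Ndufb8 was the lowest member in silent sensitive cells. It ran from 3.62 to 2254 CPM in silent insensitive cells with a median of 550, and from 0 to 849 CPM in silent sensitive cells with a median of 4.81. It reached 10 CPM in 17 of 18 and 4 of 10 cells, and 1 silent sensitive cell exceeded the silent insensitive median. The difference was -4.08, from -4.66 to -3.58 when 1 cell was left out, -4.75 within title letters and -1.79 in summed counts. Exons of Ndufb8 overlap the annotated gene Gm20538 on the same strand. Ndufv3 (-3.02), Ndufb11 (-2.94), Ndufb3 (-2.89) and Ndufb10 (-2.80), all accessory subunits of complex I, followed. Each of these kept its sign under every scaling tried. Ndufb3 reached 10 CPM in 14 of 18 silent insensitive and 5 of 10 silent sensitive cells. In the other direction were Uqcrq of complex III (1.54), Ndufa3 (1.05) and Ndufa10 (1.01) of complex I, and Sdhc (0.94), though in summed counts Ndufa10 lay at -0.41 and Ndufa3 at -0.09. Ndufa10 fell to 0.62 without silent sensitive cell 9 and Ndufa3 to 0.70 without silent insensitive cell 15, and Sdhc was 0.59 without silent insensitive cell 13 and 1.71 without silent sensitive cell 8. Sdhc thus differed in direction from the other complex II genes, which were Sdha at -2.29, Sdhb at -1.84 and Sdhd at -2.39. Uqcrq had medians of 331 and 372 CPM and reached 10 CPM in 13 of 18 and 8 of 10 cells. Sdha had medians of 552 and 14.9 CPM, running from 0 to 2128 CPM and from 0 to 2827 CPM, and its difference became 0.10 in summed counts.

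Silent insensitive cells were compared with insensitive cells, both of which the labels call insensitive to temperature. Of 80 eligible members, 34 (42.5%) were lower by 1 or more in silent cells and 0 higher, against 36.7% and 5.85% of all 5368 eligible genes. The median difference was -0.80, and -0.69 over all genes; over all 84 members it was -0.74 with 34 lower and 0 higher. Of the 80, 3 were eligible through the insensitive cells only. Both classes also serve in the comparisons above. Of 12 neuronal markers 7 were lower by 1 or more and 0 higher (median -1.12), while 4 of 4 eligible oligodendrocyte markers were higher (median 2.09) and 3 of 8 microglial ones (median 0.68). The summed oligodendrocyte markers ran from 13.3 to 41930 CPM in silent insensitive cells, with a median of 4371. The part of these markers in the members' differences was not tested. The lowest were Ndufs3 (-2.63), Ndufb6 (-2.55), Ndufaf5 (-2.48), Ndufa9 (-2.22) and Ndufv1 (-2.19), which except for the assembly factor Ndufaf5 are complex I subunits. Ndufs3, a core subunit, had medians of 130 CPM in insensitive and 3.72 CPM in silent insensitive cells and reached 10 CPM in 19 of 24 and 8 of 18 cells. Its exons overlap Kbtbd4 on the other strand. Cox5a (0.87), Ndufs8 (0.85), Cox7b (0.80), Ndufa7 (0.77) and Atp5d (0.57) were the highest and stayed above 0 under every library total tried, but in summed counts Ndufa7 (-0.30), Cox5a (-0.03) and Cox7b (-0.01) did not. Complex II, at -0.35, lay above the median gene here, and its sign changed with DESeq2 size factors, to 0.10.

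Other genes of the pathway were counted from lists. In warm-sensitive against insensitive cells, 6 of 10 eligible carriers and transporters (among them cytochrome c and the ADP/ATP carriers) were lower by 1 or more and 0 higher, with a median of -1.76. Of 20 eligible assembly genes outside the Ndufaf group, 15 were lower and 0 higher, with a median of -2.01. Of 11 regulators of mitochondrial genes, 1 was eligible. Of 15 eligible glycolytic genes, 10 were lower and 0 higher, with a median of -1.31. Mitochondrial ribosomal protein genes had a median of -1.70 (46 of 63 lower), proteasome genes -2.31 (30 of 35 lower) and cytosolic ribosomal protein genes -0.51 (19 of 64 lower). The 80 members, at -1.44 and 52 lower, lay between these lists and near the median gene. In cold-sensitive cells the glycolytic genes had a median of 0.09, with 3 of 15 lower and 2 higher, and between the silent classes one of -0.88, with 6 of 15 lower in silent sensitive cells and 1 higher.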

How the data were processed

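Single preoptic neurons (96) were patched, recorded and sequenced, per the labels' protocols. The analysis starts from whole-number read counts that the authors deposited for each gene in each cell. The authors also deposited normalized signal values in a second table, which served only as an alternative. The submitters' processing notes name FastQC, STAR, edgeR and the build mm10. How reads were counted, with which annotation and whether by strand, is not stated in the sources used here. Total counts per cell ran from 465167 to 3660726, with a median of 1279600; counts outside Rn45s ran from 73702 to 2730897, which limits rarely found genes.

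Cells were grouped by the temperature class in the labels. The members and lists were chosen with earlier results of these data known. CPM was computed over counts outside Rn45s, since that gene's share differs between classes. For each class log2(CPM + 1) was averaged over cells and the second class subtracted from the first. The 1 added to CPM makes changes of low genes come out too small. Members missing from many cells of a class can differ more on this scale than in summed counts. For complex I in warm-sensitive against insensitive cells, the median was -1.94, against a log2 ratio of -0.08 in summed counts. A gene was eligible at 10 CPM in at least 25% of cells, and at least 3 cells, of either class, and counted as lower or higher at a difference of 1 on the log2 scale. Named members are the 5 lowest and 5 highest eligible members of each comparison, the core subunits of complex I, the complex II genes, Uqcrc1, Uqcrc2, Uqcrfs1, Atp5a1, Atp5b, the isoform families and the genes beside the limit of the rule. Ndufa4 was set with complex IV. Each cell is 1 sample in the labels and no animal is named, so no test was made. Thinning drew 100000 counts per cell. Letters A to H in the titles were treated as a possible batch, with 12 cells each. No 2 cells held identical values.

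Alternatives were other library totals (all counts, TMM from edgeR, DESeq2 size factors), the deposited values, pseudocounts of 0.1 and 10, no filter on low genes, thinning, detection at 1 or 5 counts, complexes by symbol alone, differences relative to the median gene, summed counts, differences within title letters, removal of each cell in turn, and removal of all cells in which Rn45s held over 75% of counts. The difference measure was also run on simulated counts for warm-sensitive and insensitive cells. These were drawn from a shared mean profile, with known changes in genes picked at random. Apart from those genes the simulated classes differed only in their totals. The simulation therefore cannot show how the measure behaves under other class differences in the genes found. Overlaps and copies come from GENCODE M21 (83 of 84 members matched) and blastn 2.17.0, promoters from RefSeq on GRCm38.p6. Values were computed in Python 3.11.15 with pandas 2.3.3, scipy 1.17.1, numpy 2.4.6 and matplotlib 3.10.9, and size factors in R 4.3.3 with DESeq2 1.42.0 and edgeR 4.0.16.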

Additional observations from a re-analysis of the deposited data

Results flagged for a closer look

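Values were marked where the highest or lowest cell of a class of 5 or 10 cells lay apart from the others, with a gap to its nearest neighbour of more than 0.71 of the class range for 5 cells or 0.466 for 10 cells. Of 128 groups of values tested, 29 were marked. The cutoffs mark about 1 in 20 groups of normally distributed values. Many values here are 0, and the groups share the same cells, so the 29 cannot be set against that rate. The values of single members below are log2(CPM + 1).

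Most marks fell on 2 cells. Cold-sensitive cell 4, which had 2198 genes with a count, was alone the lowest of its class in 35 of the 84 members and lay apart in 11 of those tested. It measured 3.64 for Atp5f1, 4.98 for Cox4i1, 4.03 for Cox5a, 3.11 for Cox6a1, 3.64 for Cox6b1, 2.27 for Ndufa7, 2.27 for Ndufb3, 3.11 for Ndufb8, 0 for Ndufb9, 0 for Sdhd and 2.27 for Uqcrh. The next cell lay at 10.6 for Cox4i1, at 8.40 for Ndufb9 and at 8.47 for Uqcrh. In other members cell 4 was the highest of its class, among them Uqcrfs1 (3121 CPM), Cox7a2 (2309 CPM), Ndufb6 (2244 CPM) and Atp5k (348 CPM). In the same cell complex III made 18.7% of the members' counts, the highest share of its class, with the next cell at 9.64%. Silent sensitive cell 8 had 15 members at 10 CPM. Complex I made 64.2% of its members' counts, against 40.4% in the next cell. Its mean over complex III members was 0.86, with the next cell at 4.58, and its mean over complex IV members 1.41, with the next at 6.26. It was also lowest for Atp5a1 (3.16), Atp5g3 (1.37) and Cox8a (1.37).

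Single high cells were found for members that few cells held. In cold-sensitive cells these were Atp5sl at 5.99 in cell 3, Cox6b2 at 5.83 and Ndufaf5 at 5.76 in cell 1, and Ndufaf2 at 6.63 in cell 5. In silent sensitive cells they were Atp5g2 at 2.41 and Ndufaf5 at 7.71 in cell 3, Atp5s at 7.55 in cell 6, Atp5sl at 10 in cell 4, and Cox6b2 at 4.85 in cell 10. Single low silent sensitive cells were cell 10 for Atp5b, at 5.60, and cell 5 for Ndufs7, at 3.47.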

How the results depend on the processing

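No paired analysis was possible because replicate numbers were given in accession order and no label ties cells of different classes to each other. The median difference for cold-sensitive against insensitive cells (-0.29) changed sign, to 0.07 with TMM, 0.03 with DESeq2 size factors, 0.17 relative to the median gene and 0.17 without cold-sensitive cell 4, which left 11 members lower and 15 higher. For warm-sensitive against insensitive cells, the median difference of the members (-1.44) was -0.38 with DESeq2 size factors, -0.17 relative to the median gene and -0.16 with counts summed over cells. The members lower by 1 or more (52) then numbered 25, 21 and 13, and those higher (0) numbered 7, 10 and 4. For cold-sensitive against insensitive cells, the members lower (21) numbered 13 relative to the median gene and 8 in summed counts. Those higher (8) numbered 3 with all counts in the total, 15 with TMM, 3 with a pseudocount of 10, 18 relative to the median gene and 2 in summed counts. For silent sensitive against silent insensitive cells, the members lower (36) numbered 17 with DESeq2 size factors and 20 in summed counts. Those higher (3) numbered 1 with all counts, 19 with DESeq2 size factors, 5 with the deposited values, 6 and 1 with pseudocounts of 0.1 and 10, 14 within title letters and 13 relative to the median gene. For silent insensitive against insensitive cells, the members lower (34) numbered 20 with DESeq2 size factors, 15 with a pseudocount of 10, 15 relative to the median gene and 5 in summed counts. Those higher (0) numbered 5 with DESeq2 size factors, 1 with a pseudocount of 0.1, 6 relative to the median gene, 3 in summed counts, 1 within title letters and 5 without cells over 75% Rn45s. With Rn45s in the totals, median levels on the log2 scale were 3.93 for complex I, 5.77 for complex IV and 5.24 for complex V in warm-sensitive cells. They were then 5.96 for complex III and 6.48 for complex V in cold-sensitive cells, and 6.38 for complex IV and 5.86 for complex V in silent insensitive cells. A pseudocount of 10 put complex I in warm-sensitive cells at 6.18. With Rn45s in the totals the median summed CPM was 8604 in silent sensitive, 9470 in warm-sensitive, 13779 in silent insensitive, 14566 in cold-sensitive and 15915 in insensitive cells. With detection at 1 count, the median share of cells per member was 85.7% in warm-sensitive and 100% in cold-sensitive cells. The cause of these shifts was not tested. Leaving out 1 cell, the median ran from -1.64 to -1.33 for warm-sensitive cells, with 51 to 57 lower and 0 to 0 higher. It ran from -0.53 to 0.17 for cold-sensitive cells, with 11 to 29 lower and 3 to 15 higher. For silent sensitive cells it ran from -1.06 to -0.46, with 27 to 39 lower and 1 to 7 higher, and for silent insensitive cells from -0.93 to -0.67, with 24 to 39 lower and 0 to 3 higher. Cold-sensitive cells 2 and 4 and insensitive cells 4, 19 and 23 moved the count of higher members by over 1.5 times. In all, 234 of 284 other values and 401 of 432 with a cell left out stayed within the spread or 1.5 times the count. With 5 cold-sensitive cells and no animal named, variation between animals cannot be seen.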

Other observations

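The 18 cells of unknown class had from 30 to 79 members at 10 CPM or more, with a median of 61.5. The summed level of their members ran from 12575 to 46177 CPM, with a median of 29670. Of these cells, 4 held all 4 complex II genes at 10 CPM, 7 held 3, 4 held 2, 2 held 1 and 1 held none. Complex II made a median of 4.31% of their members' counts.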
